A study of Mus musculus with 45 samples.

Results

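Mouse livers lacking Uhrf1 in hepatocytes were compared at 30 h and at 24 h after partial hepatectomy, surgery in which lobes are cut away and the rest of the liver grows back. The comparison held 6 of the 45 RNA-seq libraries of the study, 3 of Uhrf1hepKO livers at 30 h (KO 30 h) and 3 of Uhrf1hepKO livers at 24 h (KO 24 h), chosen by their titles. Beside them stand 2 libraries of wild-type livers at 30 h (WT 30 h) and 3 at 24 h (WT 24 h). All of these mice were C57Bl/6 on a normal diet, were 8 to 12 weeks old at surgery and had lost the same share of the liver in a morning operation. The genotype name speaks of a knockout in hepatocytes. The promoter that drives the deletion is not given in the sources used here, and other liver cells may keep the gene. Whether each library of a group came from its own animal is not stated in the labels, and the spread behind the p-values may be in part technical. Since surgery took place at one time of day, 30 h and 24 h also differ in the hour of collection, and the effects of time since surgery and of clock time cannot be told apart.

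Hepatocytes are normally quiescent and enter the cell cycle almost together after hepatectomy. Cyclin D and cyclin E kinases inactivate the retinoblastoma proteins, E2F factors then switch on the genes of DNA replication, and the MuvB complex with B-Myb and FOXM1 switches on the genes of mitosis later. UHRF1 binds hemimethylated DNA behind the replication fork and brings the methyltransferase DNMT1 to it, and its own gene is one of those transcribed around S phase.

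The KO livers gained replication and mitosis transcripts between the times, together with the arm of the circadian clock that is led by Dbp. They lost interferon-stimulated transcripts and the arm of the clock that is led by Arntl. Of 14090 genes tested with edgeR's quasi-likelihood test, 884 were called higher at KO 30 h than at KO 24 h at a Benjamini-Hochberg adjusted p under 0.05, which is 6.27% of those tested. Another 389 were called lower, or 2.76%. Size differed between the directions: 278 of the genes that rose and 28 of those that fell did so at least 4-fold, and their median log2 fold changes were 1.24 and -0.70. Over all genes tested the median was -0.001. The libraries of the times lay apart in 852 of the 884 higher genes and 359 of the 389 lower genes. Libraries that lie apart are therefore usual for a called gene here. The count of lower genes depended on single libraries, being 144 without KO 30 h replicate 3, 177 without KO 24 h replicate 1, 229 without KO 30 h replicate 2 and 257 without KO 24 h replicate 3. The count of higher genes lay between 639 and 849 when 1 library was left out.

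Total counts were 13981094 to 19220767 in KO 30 h libraries and 15904593 to 16920527 in KO 24 h libraries. The first principal component of these 6 libraries held 54.6% of their variance and separated the times. Hepatocyte markers were abundant in every library: Alb, the albumin gene, had 41549, 56696 and 57172 CPM (counts scaled to library size with TMM factors) at KO 30 h and 47163, 42039 and 53173 CPM at KO 24 h. Apoa1, Hnf4a and Cyp2e1 also overlapped between the times and were not called. In bulk liver, fewer cells of a type and less RNA per cell cannot be told apart.

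The targeted gene was measured first. Uhrf1 (chr17:56303321-56323486, plus strand, GRCm38) had 8.87, 14.6 and 15.2 CPM at KO 30 h and 1.09, 0.674 and 1.08 CPM at KO 24 h. The libraries of the times lay apart, and the gene was 13.4-fold higher at KO 30 h (log2 3.74 ± 0.59 (SE), edgeR adjusted p = 2.22e-05). In wild type it had 36.5 and 28.0 CPM at WT 30 h and 4.74, 2.81 and 1.52 CPM at WT 24 h. Every KO library was therefore below every WT library of its own time, while the KO step and the WT step of Uhrf1 differed by 0.34 ± 0.80 on the log2 scale (adjusted p = 0.999). Since counts were taken over the whole gene, RNA of the undeleted exons and RNA of other liver cells can be among them.

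**Figure D1:**
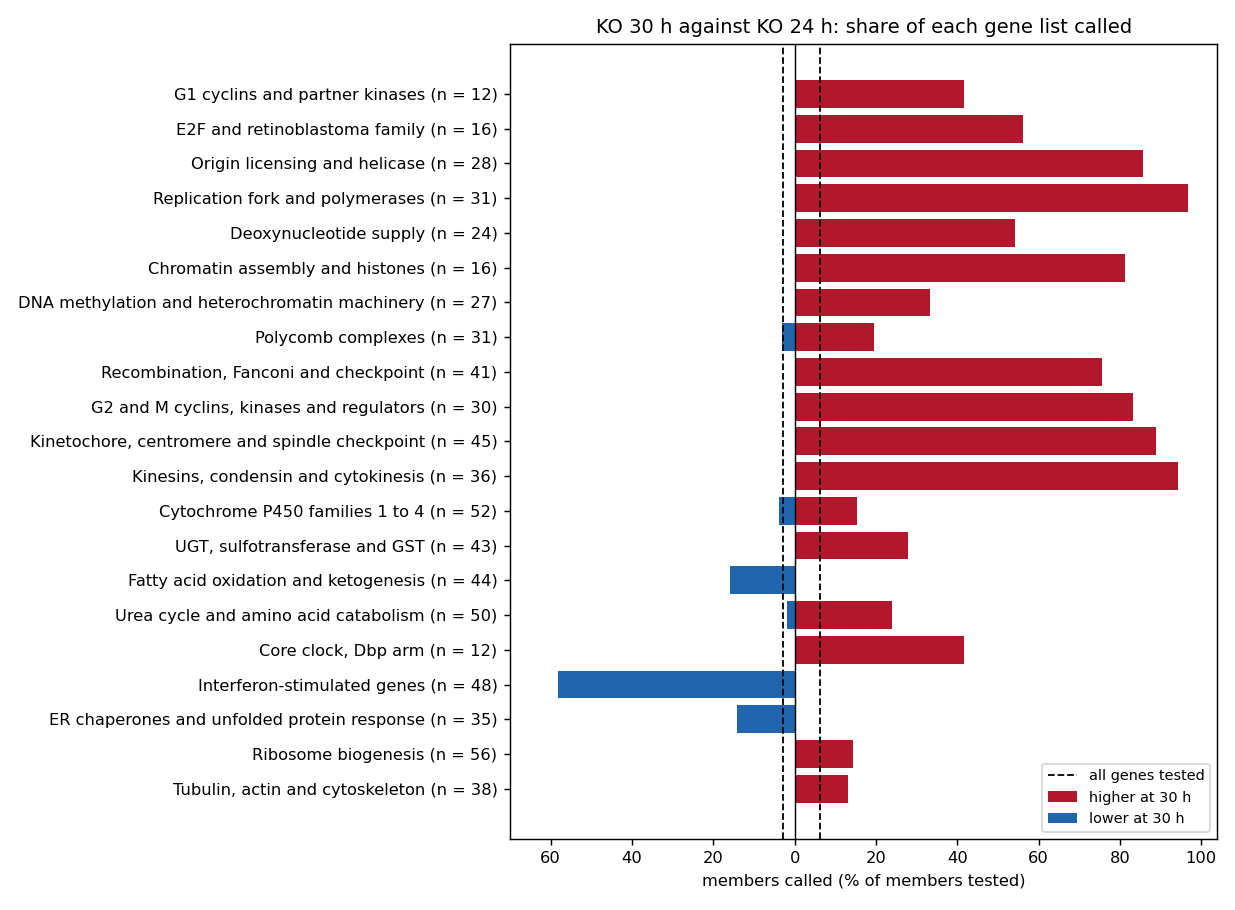
For gene lists with at least 5 members called in 1 direction, the share of tested members called higher (red, to the right) or lower (blue, to the left) at KO 30 h than at KO 24 h, with the number tested beside each name. Dashed lines mark the shares of all genes tested, 6.27% higher and 2.76% lower. The replication and mitosis lists reach 75.6 to 96.8% except deoxynucleotide supply at 54.2%, and the interferon-stimulated genes reach 58.3% to the left.

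11 lists covered the cell cycle, DNA replication, DNA repair and mitosis. The filter on low counts left out 3 of the lists' symbols, a deoxynucleotide gene and 2 CDK inhibitors. Of the 285 distinct members tested, 227 were called higher, or 79.6%, against 6.27% of all genes, and their median log2 fold change was 2.2. These 227 genes made up 25.7% of all genes that rose. The 657 genes that rose outside these lists had a smaller median, 0.97.

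Cyclin D1 and the cyclin E genes act at the entry to the cycle. Ccnd1, which partners CDK4 and CDK6 early in G1, had 175, 187 and 185 CPM at KO 30 h and 105, 57.7 and 103 CPM at KO 24 h. Its libraries did not overlap, and it did not pass after adjustment (log2 1.04 ± 0.48, adjusted p = 0.192), although it passed when only the groups compared were fitted (adjusted p = 0.0239). Ccne1, which partners CDK2 at the start of S phase, had 21.8, 21.9 and 25.2 CPM at KO 30 h and 3.96, 2.33 and 2.39 CPM at KO 24 h. It was 7.91-fold higher (log2 2.98 ± 0.46, adjusted p = 1.23e-05), and Ccne2 rose by a like amount (log2 2.91 ± 0.37). The phosphatase gene Cdc25a, which activates CDK2, rose less (log2 1.69 ± 0.25). In all, 5 of 12 G1 cyclin and kinase genes were called higher, with Cdk2 and Cdk4 as the other two.

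Among CDK inhibitors, Cdkn2c (p18), which acts on CDK4 and CDK6, had 12.6, 14.8 and 16.5 CPM at KO 30 h and 3.61, 2.45 and 2.22 CPM at KO 24 h (log2 2.40 ± 0.21, adjusted p = 3.13e-10). Cdkn1a (p21), the p53-responsive inhibitor of CDK2, had 34.5, 52.9 and 26 CPM at KO 30 h and 33.1, 43.8 and 134 CPM at KO 24 h. The Cdkn1a libraries overlapped, 1 library of KO 24 h was far above the rest, and the gene was not called (log2 -0.90 ± 0.72, adjusted p = 0.51). Of 28 p53 targets, 4 rose, or 14.3% against 6.27% of all genes tested, and 2 fell, or 7.14% against 2.76%. The receptor gene Eda2r reached 1.92, 2.24 and 1.41 CPM at KO 30 h, against 0.172, 0.123 and 0.284 CPM at KO 24 h (log2 3.21 ± 0.58, adjusted p = 0.000156). Aen, a nuclease gene of the same response, rose by 0.75 ± 0.14, and Perp, a junction gene, fell by 0.48 on the log2 scale. Eda2r and Aen kept their calls under every alternative run, while Tnfrsf10b, Phlda3, Fas and Perp each lost theirs in at least 1 (adjusted p up to 0.107).

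The E2F and retinoblastoma family had 9 of 16 members called higher. E2f1, which activates S phase genes, had 33.7, 42.7 and 42.3 CPM at KO 30 h and 5.33, 3.43 and 4.21 CPM at KO 24 h. The libraries of the times lay apart (log2 3.19 ± 0.29, adjusted p = 4.71e-10). Rbl1 (p107) rose by 1.91 ± 0.25, the MuvB subunit gene Lin54 by 1.23 ± 0.15 and Tfdp1, the dimer partner of E2F proteins, by 0.86 ± 0.14 on the log2 scale. E2f4, which encodes a repressor of quiescent cells, had 18.9, 18.6 and 19.6 CPM at KO 30 h and 19.3, 18.4 and 20.9 CPM at KO 24 h, and these values overlapped. Myc was not called either (log2 -0.57 ± 0.52, adjusted p = 0.568).

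**Figure D2:**
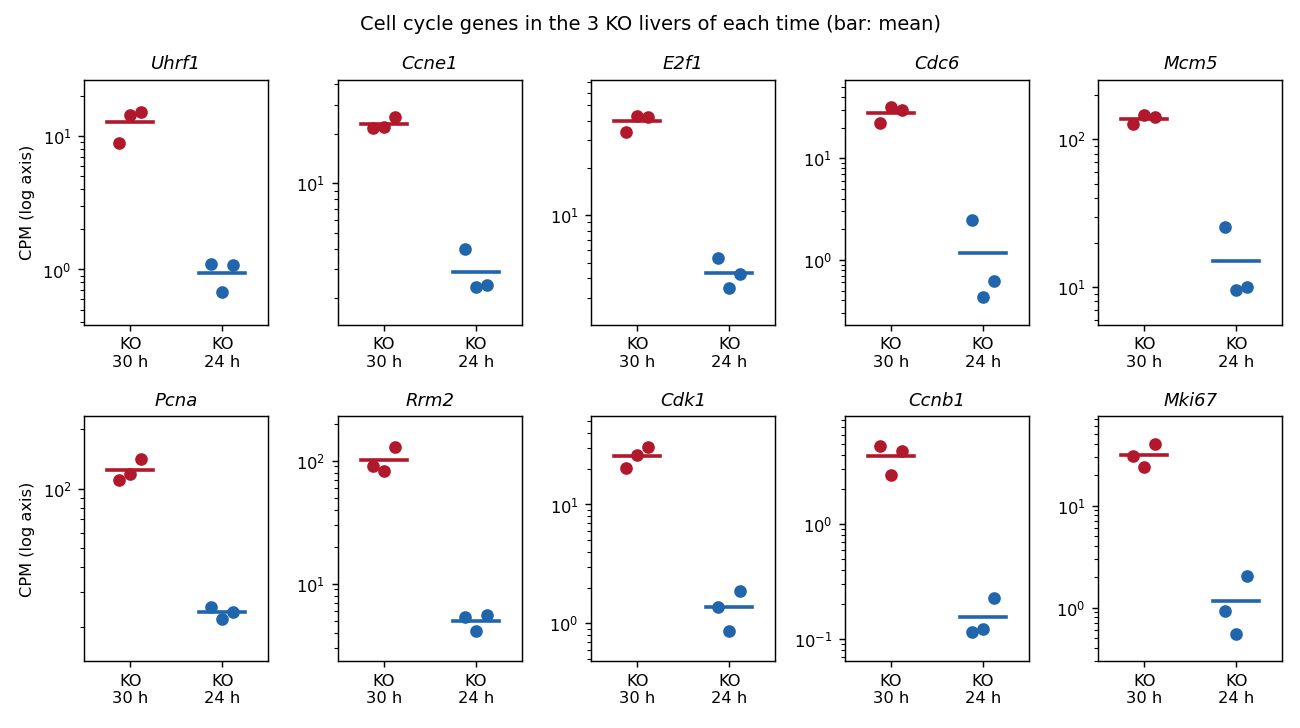
CPM on a log axis of 10 genes in the 3 KO livers at 30 h (red) and the 3 at 24 h (blue), with a bar at each mean. In every panel the 3 values at 30 h lie above the 3 at 24 h, from Uhrf1 at 8.87 to 15.2 against 0.674 to 1.09 CPM to Rrm2 at 82.1 to 129 against 4.17 to 5.57 CPM.

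Origin licensing is the loading of the MCM helicase on DNA before replication. Of 28 licensing and helicase genes, 24 were called higher, with a median log2 fold change of 2.25. Mcm5, a subunit of the helicase, had 126, 147 and 141 CPM at KO 30 h and 25.3, 9.56 and 9.95 CPM at KO 24 h (log2 3.20 ± 0.44, adjusted p = 2.53e-06). Cdc6, which loads the helicase, had 22.2, 31.7 and 30 CPM at KO 30 h and 2.46, 0.429 and 0.626 CPM at KO 24 h. It was 23.5-fold higher (log2 4.55 ± 0.67, adjusted p = 7e-06). KO 24 h replicate 1 was the highest of its group in Cdc6, Mcm5 and Mcm2, so the groups lay apart by more in the other two libraries. The geminin gene Gmnn, whose product blocks reloading, rose too, to 15.2, 22.5 and 26.9 CPM at KO 30 h, against 5.16, 5.64 and 3.24 CPM at KO 24 h. The summed level of the list was 922 to 1117 CPM at KO 30 h and 203 to 308 CPM at KO 24 h.

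At the fork, 30 of 31 genes were called higher, with a median of 1.90. Pcna, the sliding clamp of the polymerases, had 111, 119 and 141 CPM at KO 30 h and 25.2, 22 and 23.8 CPM at KO 24 h (log2 2.39 ± 0.22, adjusted p = 8.77e-10). The single-strand binding genes Rpa1 and Rpa2 differed in size: Rpa1 rose by 1.41 ± 0.13 and Rpa2 by 2.49 ± 0.23 on the log2 scale. Lig1, which joins Okazaki fragments, reached 39.8, 50.4 and 55.4 CPM at KO 30 h, against 7.28, 4.11 and 4.61 CPM at KO 24 h.

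Of 24 genes of deoxynucleotide supply, 13 were called higher. Rrm2, the small subunit of ribonucleotide reductase, had 91.2, 82.1 and 129 CPM at KO 30 h and 5.33, 4.17 and 5.57 CPM at KO 24 h. The times did not overlap (log2 4.32 ± 0.31, adjusted p = 2.93e-11), and the large subunit gene Rrm1 rose by 2.51 ± 0.21. Tyms, the thymidylate synthase gene, rose by 1.65 ± 0.13. In chromatin assembly, 13 of 16 genes rose, among them the histone chaperone genes Asf1b (log2 3.88 ± 0.41), Chaf1b (3.33 ± 0.38) and Chaf1a (2.96 ± 0.31), which deposit new histones behind the fork. Poly(A) selection passes over most replication-dependent histone transcripts, so these were not covered.

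Repair and checkpoint genes moved with replication, 31 of 41 being called higher with a median of 2.16. Fancd2, of the Fanconi crosslink pathway, had 5.59, 6.12 and 6.64 CPM at KO 30 h and 0.229, 0.123 and 0.228 CPM at KO 24 h. The groups lay apart, with a log2 fold change of 4.92 ± 0.50. Exo1, a nuclease gene of resection and mismatch repair, was at 7.84 to 10.6 CPM at KO 30 h and at 0.284 to 0.306 CPM at KO 24 h.

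In this fit the 3 mitosis lists had the highest median fold changes of the 57 lists. Of 30 G2 and M cyclin and kinase genes, 25 were called higher (median 3.37), of 45 kinetochore and spindle checkpoint genes 40 (median 3.06), and of 36 kinesin, condensin and cytokinesis genes 34 (median 3.67). With limma on log2(FPKM + 1), where the added 1 shrinks the changes of low genes, these medians were 1.4, 1.17 and 1.09, against 1.32 for the fork genes and 1.24 for origin licensing. Cdk1, the kinase of entry into mitosis, had 20.2, 26.1 and 30.7 CPM at KO 30 h and 1.38, 0.858 and 1.88 CPM at KO 24 h (log2 4.21 ± 0.43, adjusted p = 9.05e-09). Its partner Ccnb1 had only 4.79, 2.7 and 4.35 CPM at KO 30 h and 0.115, 0.123 and 0.228 CPM at KO 24 h, and was 24.5-fold higher (log2 4.61 ± 0.87, adjusted p = 0.000361). Both genes had higher means at 40 and 48 h than at 30 h.

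The regulators of this program changed with it. Foxm1, which encodes a transcription factor of mitotic genes, had 7.18, 5.73 and 10.6 CPM at KO 30 h and 0.287, 0.123 and 0.626 CPM at KO 24 h (log2 4.46 ± 0.48, adjusted p = 1.75e-08). Aurkb, the kinase of the chromosomal passenger complex, had 7.46, 8.23 and 11.6 CPM at KO 30 h and 0.172, 0.184 and 0.341 CPM at KO 24 h (log2 5.24 ± 0.43). Mki67, the proliferation marker, had 30.6, 23.8 and 40.2 CPM at KO 30 h and 0.917, 0.552 and 2.05 CPM at KO 24 h (log2 4.73 ± 0.52). In each of the 3 genes the times did not overlap. Large rises were also those of Pbk, a mitotic kinase gene (log2 6.13 ± 0.53), Esco2, whose product acetylates cohesin (5.56 ± 0.54), and Cdca5, which encodes sororin of the cohesin complex (5.20 ± 0.43). Stmn1, the microtubule regulator stathmin, and the tubulin genes Tubb5, Tuba1b and Tubg1 also rose: Stmn1 by 3.13 ± 0.32, the tubulin genes by 0.54 to 0.87, with Tuba1b losing its call in the limma fits of the FPKM values (adjusted p up to 0.205).

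Promoter letters were read for these groups because E2F and CHR elements (cell cycle genes homology region) are the known sites of E2F and of the MuvB complex. The window ran from 250 bases before to 50 after the start in the RefSeq table of GRCm38.p6, both strands were searched, and motifs could overlap. An E2F motif (TTTCCCGC, TTTGGCGC or TTTCGCGC) was in 19 of 69 replication list promoters, or 27.5%, against 1.91% of all 27025 promoters. It was in 13.9% of the promoters of genes called higher and in 3.5% of those of genes tested. The CHR motif TTTGAA was in 56 of 94 mitosis list promoters, or 59.6%, against 18.1% of all promoters. The CCAAT box, which often lies next to a CHR, was in 72.3% of the mitosis list promoters and in 37.9% of all. Shown are stretches before the start for a pair of helicase genes and a pair of mitosis genes, the first with E2F motifs in capitals and the second with the CHR in capitals. The Cdk1 and Arhgap11a stretches also hold an E2F motif each, left in lower case. They are Mcm5 (chr8:75109359-75109508, plus strand), Mcm6 (chr1:128359706-128359855, minus strand), Cdk1 (chr10:69352939-69353062, minus strand) and Arhgap11a (chr2:113848662-113848811, minus strand).
Mcm5: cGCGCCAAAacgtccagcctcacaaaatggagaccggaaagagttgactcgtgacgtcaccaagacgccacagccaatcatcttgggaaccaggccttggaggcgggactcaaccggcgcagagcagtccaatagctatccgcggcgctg
Mcm6: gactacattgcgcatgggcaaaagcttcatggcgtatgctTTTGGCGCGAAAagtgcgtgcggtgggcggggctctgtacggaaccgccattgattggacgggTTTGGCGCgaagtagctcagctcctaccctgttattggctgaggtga
Cdk1: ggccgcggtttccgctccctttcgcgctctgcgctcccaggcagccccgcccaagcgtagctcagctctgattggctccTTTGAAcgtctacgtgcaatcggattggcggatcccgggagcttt
Arhgap11a: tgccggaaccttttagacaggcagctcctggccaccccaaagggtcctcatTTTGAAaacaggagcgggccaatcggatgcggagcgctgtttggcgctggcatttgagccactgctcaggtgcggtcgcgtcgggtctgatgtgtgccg
A match is a description of letters and not a bound site. Mcm6, with 3 matches, had 147, 166 and 164 CPM at KO 30 h and 26.3, 15.7 and 13.8 CPM at KO 24 h, close to the levels of Mcm5 with 1 match.

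The DNA methylation machinery, of which UHRF1 is part, had 9 of 27 members called higher, with Uhrf1 among them. That is 33.3%, against 6.27% of all genes tested. Dnmt1, the maintenance methyltransferase gene, had 42.4, 48.9 and 56.4 CPM at KO 30 h and 19.4, 13.4 and 15.6 CPM at KO 24 h (log2 1.61 ± 0.24, adjusted p = 9.32e-06). Hells, a chromatin remodeller gene needed for DNA methylation, reached 35.5, 31.1 and 42 CPM at KO 30 h, against 5.39, 2.7 and 2.56 CPM at KO 24 h (log2 3.35 ± 0.40). The groups lay apart for both. The histone H3K9 methyltransferase gene Suv39h1 rose by 1.83 ± 0.18 and Cbx5, the heterochromatin protein HP1 alpha, by 1.06 ± 0.13. The de novo methyltransferase genes were not called: Dnmt3a changed by 0.03 ± 0.17 and Dnmt3b by -0.71 ± 0.44 on the log2 scale. Of 31 Polycomb genes 6 rose, or 19.4%, led by Ezh2 (log2 1.83 ± 0.19), the H3K27 methyltransferase. The 1 that fell was 3.23%, near the 2.76% of all genes. The count of Polycomb genes that rose was 2 without KO 24 h replicate 3 or KO 30 h replicate 3, and 3 without KO 30 h replicate 2.

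The circadian clock differed in both directions. BMAL1 (encoded by Arntl) with CLOCK or NPAS2 drives Dbp, Per and Ciart genes through E-boxes, and the products of Per genes and Ciart in turn repress it. Arntl had 4.04, 2.5 and 2.12 CPM at KO 30 h and 19.4, 18.7 and 27.3 CPM at KO 24 h (log2 -2.89 ± 0.79, adjusted p = 0.0161). Npas2 had 0.188, 0.263 and 0.647 CPM at KO 30 h and 4.81, 4.72 and 10.7 CPM at KO 24 h, 18.5-fold lower at KO 30 h (log2 -4.21 ± 0.89, adjusted p = 0.00147). Both sets of libraries lay apart. The call of Arntl was lost, with an adjusted p up to 0.0851, without KO 24 h replicate 3, KO 30 h replicate 2 or KO 30 h replicate 3, and that of Npas2 held without each library. In all, 3 of the 7 genes of this arm fell, or 42.9% against 2.76% of all genes tested, and 1 without KO 30 h replicate 2.

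Of the 12 genes of the Dbp arm, 5 rose, or 41.7% against 6.27% of all genes tested. Dbp, which encodes an output factor of the clock, had 17.9, 21.6 and 24.4 CPM at KO 30 h and 1.78, 2.08 and 0.683 CPM at KO 24 h (log2 3.82 ± 1.02, adjusted p = 0.0146). Ciart, a repressor of BMAL1, had 7.28, 9.15 and 7.35 CPM at KO 30 h and 0.344, 0.368 and 0.284 CPM at KO 24 h (log2 4.55 ± 1.11, adjusted p = 0.00667). Every KO 30 h library exceeded every KO 24 h library in Dbp, Ciart, Per3, Tef, Per1 and Nr1d1, among others. Per3 was 6.44-fold higher, whereas Per1 (log2 0.54 ± 0.55) and Nr1d1 (1.08 ± 0.73), also clock repressors, were not called at adjusted p = 0.615 and 0.408. With the replicate block the call of Tef was lost (adjusted p = 0.0556) and Nr1d1 passed (adjusted p = 0.00545). The count of this arm was 3 without KO 24 h replicate 1 or KO 24 h replicate 3. Dbp lost its call in both cases (adjusted p up to 0.079). Of 33 clock output genes 29 were not called. The 3 that rose were 9.09%, against 6.27% of all genes tested, and the 1 that fell was 3.03%, against 2.76%. Of those that rose, the uridine phosphorylase gene Upp2 had 61.3, 41.8 and 65.7 CPM at KO 30 h and 3.9, 5.52 and 7.74 CPM at KO 24 h (log2 3.30 ± 0.62). Wee1, a clock-driven gene whose kinase restrains CDK1, had 9.34, 8.56 and 10.4 CPM at KO 30 h and 1.83, 1.35 and 1.08 CPM at KO 24 h (log2 2.72 ± 0.56, adjusted p = 0.00102). Wee1 is also 1 of the 25 genes called higher in the G2 and M list.

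The E-box CACGTG was in 4 of 10 promoters of the Dbp arm and in 7.24% of all promoters. The stretch before the start of Ciart (chr3:95882252-95882378, minus strand) is shown because it held 3 of them, in capitals.
Ciart: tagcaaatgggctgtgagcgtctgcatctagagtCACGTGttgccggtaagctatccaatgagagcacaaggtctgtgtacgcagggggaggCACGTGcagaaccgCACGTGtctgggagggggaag
The D-box TTANGTAA, the site of DBP, was in 1 of these 10 promoters against 2.34% of all, and the ROR element TAGGTCA in 1 of 6 Arntl arm promoters against 2.64% of all.

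**Figure D3:**
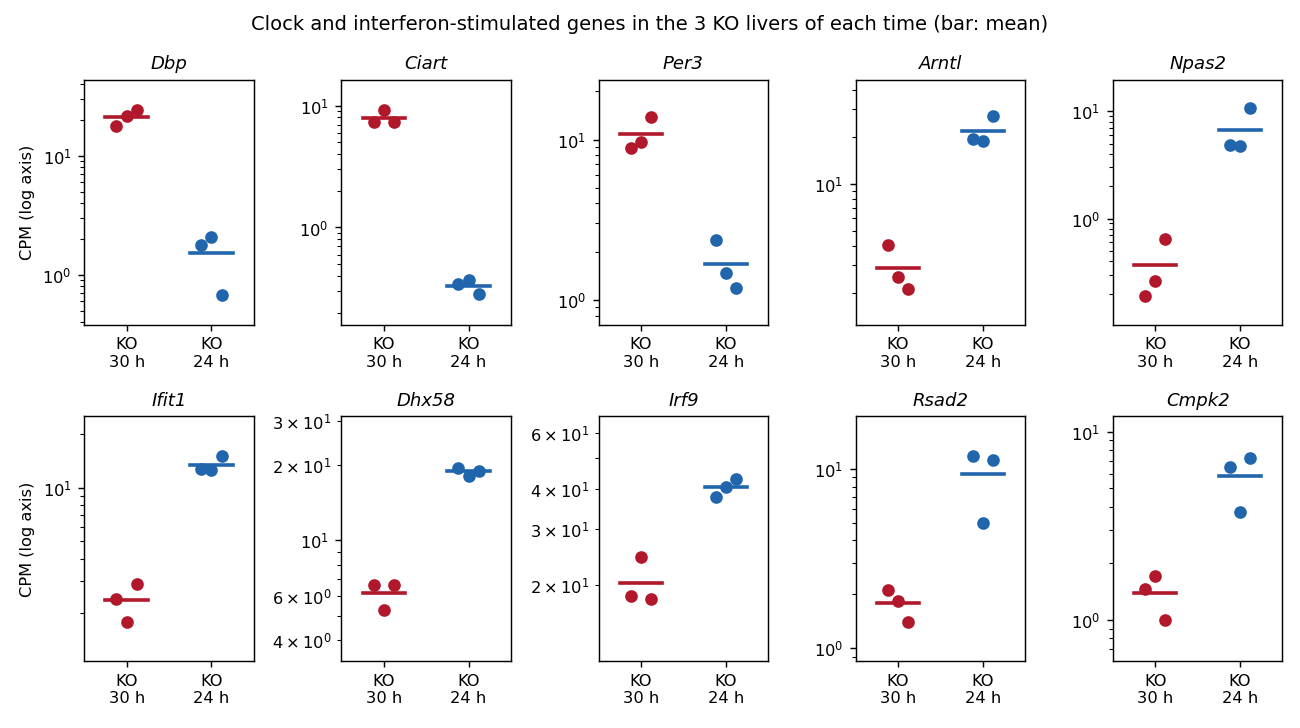
CPM on a log axis of 5 clock genes (Dbp to Npas2) and 5 interferon-stimulated genes (Ifit1 to Cmpk2) in the 3 KO livers at 30 h (red) and the 3 at 24 h (blue), with a bar at each mean. Dbp, Ciart and Per3 are higher at 30 h and the other 7 are lower, with no overlap between the times in any panel.

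Of the 57 lists, the interferon-stimulated genes had the most members called lower, 28 of 48 or 58.3%, against 2.76% of all genes tested. Their median log2 fold change was -0.86, and 44 of the 48 had a fold change below 0. Ifit1, which encodes a protein that binds viral RNA, had 2.39, 1.78 and 2.88 CPM at KO 30 h and 12.7, 12.6 and 15 CPM at KO 24 h. It was 5.67-fold lower at KO 30 h (log2 -2.50 ± 0.36, adjusted p = 3.13e-06). Dhx58, a regulator of the RNA sensor RIG-I, had 6.62, 5.27 and 6.64 CPM at KO 30 h and 19.5, 18.1 and 19 CPM at KO 24 h (log2 -1.61 ± 0.22, adjusted p = 1.32e-06). Irf9, part of the factor that binds interferon response elements, had 18.4, 24.4 and 18 CPM at KO 30 h and 37.7, 40.6 and 43.1 CPM at KO 24 h (log2 -1.0 ± 0.16, adjusted p = 1.4e-05). The libraries of the times lay apart for all 3 genes.

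The antiviral genes Rsad2 (viperin; log2 -2.37 ± 0.48) and Cmpk2 (-2.07 ± 0.38) fell as well, as did Samd9l (-1.32 ± 0.23). Stat2, a signal carrier of the pathway, fell by 0.62 on the log2 scale. The count of the list was 18 without KO 30 h replicate 2 and 21 to 24 without any other library. The core of the interferon response element, TTTCNNTTT, was in 26 of 37 promoters of the list, or 70.3%, against 10.7% of all promoters. It was in 15.7% of the promoters of genes called lower and in 8.05% of those of genes tested. This motif was added after the list was seen to be lower. The stretches of Ifit1 (chr19:34640739-34640870, plus strand) and Isg15 (chr4:156200819-156200968, minus strand) carry the matches in capitals, and Isg15 is shown because its 3 matches overlap.
Ifit1: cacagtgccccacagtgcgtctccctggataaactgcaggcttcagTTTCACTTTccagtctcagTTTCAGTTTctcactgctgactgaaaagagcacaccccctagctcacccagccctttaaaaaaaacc
Isg15: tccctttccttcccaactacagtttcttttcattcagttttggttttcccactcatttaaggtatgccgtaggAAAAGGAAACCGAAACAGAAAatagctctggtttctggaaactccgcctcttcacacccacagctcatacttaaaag
Isg15, a ubiquitin-like modifier, had 7.32, 6.39 and 10.7 CPM at KO 30 h and 21.8, 21.8 and 26.2 CPM at KO 24 h (log2 -1.52 ± 0.29, adjusted p = 0.000292).

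Macrophage markers also had a median fold change below 0. The 20 Kupffer and macrophage markers summed to 432, 218 and 263 CPM at KO 30 h and to 680, 340 and 839 CPM at KO 24 h, with a median log2 fold change of -1.20. Their sums overlapped between the times and none of the 6 libraries was near 0: Clec4f, which marks Kupffer cells, had 36.6, 14.1 and 22.9 CPM at KO 30 h and 69.5, 27.9 and 69.8 CPM at KO 24 h. Only 2 of the 20, Mpeg1 and Lyz2, were called lower, and the count ranged from 0 without KO 24 h replicate 1, KO 24 h replicate 3 or KO 30 h replicate 2 to 10 without KO 24 h replicate 2. The summed interferon-stimulated genes were 1718, 1605 and 1981 CPM at KO 30 h and 2276, 2244 and 2353 CPM at KO 24 h, without overlap. The part of the macrophage difference in the interferon result was not tested. Neutrophil and monocyte markers summed to 14.5 to 20.6 CPM at KO 30 h and 17 to 47.1 CPM at KO 24 h, and lymphocyte markers to 5.02 to 27.4 CPM at KO 30 h and 8.4 to 34.7 CPM at KO 24 h. Sinusoidal endothelial markers summed to 275 to 428 CPM at KO 30 h and 430 to 513 CPM at KO 24 h. Stellate cell and collagen markers overlapped, at 627 to 922 CPM at KO 30 h and 662 to 709 CPM at KO 24 h. Cholangiocyte markers summed to 53 to 62 CPM at KO 30 h and 68.4 to 83.7 CPM at KO 24 h, and erythroid markers to 236 to 261 CPM at KO 30 h and 185 to 189 CPM at KO 24 h.

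Acute phase genes, which the liver secretes in inflammation, were mostly lower without passing the test. Of 28, 26 had a fold change below 0 (median -0.51) and 2 were called lower, or 7.14% against 2.76% of all genes tested. A2m, the alpha-2-macroglobulin gene, had 1.27, 0.659 and 0.764 CPM at KO 30 h and 8.6, 8.46 and 11.4 CPM at KO 24 h (log2 -3.36 ± 0.94, adjusted p = 0.0203). It lost its call, with an adjusted p up to 0.0892, without KO 24 h replicate 3, KO 30 h replicate 2 or KO 30 h replicate 3. Saa3, a serum amyloid gene whose reads its relatives may share, lost its call without each library in turn (adjusted p up to 0.17). Reg3b, a secreted lectin of tissue injury, fell to 2.53, 3.1 and 1.59 CPM at KO 30 h, against 10.6, 14.7 and 15.2 CPM at KO 24 h (log2 -2.49 ± 0.49). ER chaperone genes followed in small steps, 5 of 35 falling by 0.53 to 0.67 on the log2 scale, among them Hsp90b1 and Pdia4. These 5 were 14.3% of the list, against 2.76% of all genes tested. That count was 0 without KO 30 h replicate 3 and 1 without KO 24 h replicate 2.

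Some drug metabolism genes rose, with wide spread. Of 52 cytochrome P450 genes 8 rose, or 15.4% against 6.27% of all genes tested. The 2 that fell, Cyp4b1 and Cyp2j5, were 3.85%, near the 2.76% of all genes, and lost their calls in several fits (adjusted p up to 0.237). Cyp2a5, which oxidises coumarin and nicotine, had 973, 336 and 377 CPM at KO 30 h and 34.6, 59.8 and 20.4 CPM at KO 24 h (log2 3.88 ± 0.60, adjusted p = 1.73e-05). Cyp3a11, a main enzyme of drug and steroid oxidation, had 4950, 3131 and 1030 CPM at KO 30 h and 229, 397 and 592 CPM at KO 24 h (log2 2.90 ± 0.59, adjusted p = 0.000921). The groups lay apart in both genes, and the KO 30 h libraries of Cyp3a11 spread widely. Cyp3a11 lost its call when only the groups compared were fitted, with or without the replicate block (adjusted p up to 0.222), and Cyp2a5 with the replicate block (adjusted p = 0.0633). Cyp1a1, the target of the aryl hydrocarbon receptor, ranged over 17.8, 1.45 and 7.93 CPM at KO 30 h and 0.802, 0.368 and 0.626 CPM at KO 24 h, and lost its call when only the groups compared were fitted (adjusted p = 0.0842). The P450 count was 5 without KO 30 h replicate 1.

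Conjugation genes had 12 of 43 members called higher, or 27.9% against 6.27% of all genes tested. Ugt2a3, a glucuronidation gene, had 142, 125 and 143 CPM at KO 30 h and 82.1, 83.1 and 89.9 CPM at KO 24 h (log2 0.68 ± 0.14, adjusted p = 0.000868). The organic anion transporter gene Slco1a4, from the list of bile acid synthesis and transport, reached 114, 48.7 and 48.7 CPM at KO 30 h, against 15.3, 15.3 and 12.3 CPM at KO 24 h (log2 2.30 ± 0.44). It was the 1 gene of the 32 in that list that rose, or 3.12% against 6.27% of all genes tested. In the same list 2 genes fell, or 6.25% against 2.76%, a count that was 0 without KO 24 h replicate 1. Several glutathione transferase genes were called, with Gstp1 at 584, 457 and 619 CPM at KO 30 h and 277, 285 and 287 CPM at KO 24 h, a call that was lost without KO 30 h replicate 3 (adjusted p = 0.052). Near-identical members of that family can share reads, so their single values are uncertain. The count of conjugation genes was 3 without KO 24 h replicate 1 or KO 30 h replicate 3, and 6 without KO 24 h replicate 2, KO 24 h replicate 3 or KO 30 h replicate 1.

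Amino acid catabolism rose and fatty acid oxidation fell, each in part of its list. Of 50 urea cycle and amino acid genes 12 rose, or 24.0% against 6.27% of all genes tested. The 1 that fell was 2.0%, near the 2.76% of all genes. Ass1, of the urea cycle, had 2311, 1490 and 3752 CPM at KO 30 h and 793, 1167 and 1396 CPM at KO 24 h (log2 1.17 ± 0.24), and Oat, the ornithine aminotransferase gene of pericentral hepatocytes, rose by 0.96 ± 0.20. The groups did not overlap in these genes. Ass1 lost its call when only the groups compared were fitted, with or without the replicate block (adjusted p up to 0.106). The list's count was 3 without KO 30 h replicate 3, 4 without KO 24 h replicate 1 and 7 without KO 24 h replicate 2.

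Of 44 genes of fatty acid oxidation and ketogenesis 7 fell, or 15.9% against 2.76% of all genes tested. A fold change below 0 was found in 41 of the 44 (median -0.42). Ehhadh, a peroxisomal oxidation gene and PPAR alpha target, had 791, 1210 and 336 CPM at KO 30 h and 2050, 2370 and 1431 CPM at KO 24 h (log2 -1.32 ± 0.36, adjusted p = 0.0144). The call of Ehhadh was lost when only the groups compared were fitted, without KO 24 h replicate 2 and without KO 30 h replicate 3 (adjusted p up to 0.17). KO 30 h replicate 3 was its lowest library. The list's count of lower genes was 0 without it, 16 without KO 30 h replicate 2, and 2 without KO 24 h replicate 1 or KO 24 h replicate 2. Mttp, which loads lipid on lipoproteins, fell to 352, 369 and 283 CPM at KO 30 h, against 506, 516 and 482 CPM at KO 24 h (log2 -0.58 ± 0.11, adjusted p = 0.00038). Plin2, which coats lipid droplets, had 472, 770 and 519 CPM at KO 30 h and 1061, 1019 and 1033 CPM at KO 24 h, and its call (adjusted p = 0.0462) was lost in several fits (adjusted p up to 0.186).

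Other strong decreases lay outside the lists. Ndrg1, a stress- and hypoxia-responsive gene, had 11.4, 11.3 and 4.64 CPM at KO 30 h and 53.7, 47.7 and 38.6 CPM at KO 24 h (log2 -2.35 ± 0.43). Clpx, a chaperone of the mitochondrial protease, had 85.1, 79.2 and 72.6 CPM at KO 30 h and 261, 267 and 312 CPM at KO 24 h (log2 -1.83 ± 0.38). The groups lay apart in both, as the rule that named these genes required. Mthfd2, the mitochondrial folate enzyme of proliferating cells, is in a list, that of ATF4 and amino acid stress. It went the other way, with 6.71, 9.75 and 9.58 CPM at KO 30 h and 2.18, 2.27 and 3.07 CPM at KO 24 h (log2 1.78 ± 0.23, adjusted p = 2.87e-07). Of the 32 genes tested in that list 2 rose, or 6.25%, near the 6.27% of all genes tested.

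There was no called gene in 11 of the 57 lists. Immediate early genes, ligands and receptors of the EGFR and MET pathways, hepatocyte transcription factors, glucocorticoid targets, heat shock genes, proteasome subunits and nuclear oxidative phosphorylation genes had none, as did oncofetal genes, germline genes silenced by DNA methylation, and sinusoidal endothelial and erythroid markers. In these 11 lists edgeR called 0 of 289 members, 36 were at an unadjusted p under 0.05, and DESeq2 and limma on the FPKM values called 2 each. Over all 14090 genes tested, edgeR called 9.03%, and 3137 were at an unadjusted p under 0.05. The germline genes bear on the genotype, since their silencing needs DNA methylation: of 31 symbols, 26 were in the count table and 15 passed the filter on low counts, with a summed level of 21.2 to 33.7 CPM at KO 30 h and 29.3 to 32.8 CPM at KO 24 h. Other signalling lists had a few calls. Of 26 TGF-beta and activin genes 2 fell (7.69%), of 23 Hippo-YAP targets 2 (8.7%) and of 18 IL-6, STAT3 and SOCS genes 1 (5.56%). The share of all genes tested was 2.76%, and each of these counts was 0 in at least 1 alternative fit. Of 34 growth hormone axis and sex-biased genes, Igfbp2 rose and Stat5b fell, 2.94% in each direction. The shares of all genes tested were 6.27% and 2.76%. Both genes lost their calls in several fits (adjusted p up to 0.0811 for Igfbp2 and 0.074 for Stat5b). Ribosome biogenesis had 8 of 56 members called higher, or 14.3% against 6.27% of all genes tested, led by Nhp2 and Nop56. The median of that list was 0.25, and its count was 2 to 6 when 1 library was left out.

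**Figure D4:**
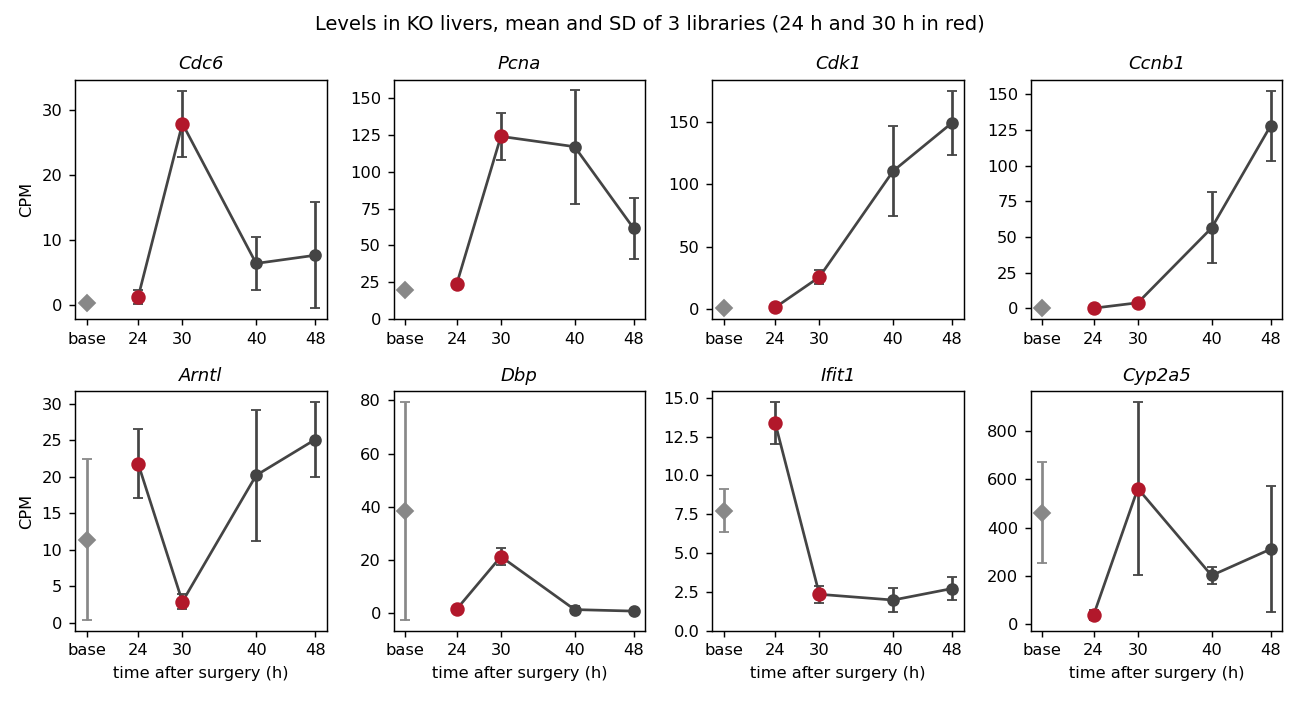
Mean CPM with SD of 3 KO libraries at baseline (grey diamond, set apart from the time axis) and at 24, 30, 40 and 48 h after surgery, with 24 h and 30 h in red. Cdc6 peaks at 30 h, Cdk1 and Ccnb1 go on to higher means at 40 and 48 h, and Ifit1 stays near 2 to 3 CPM after 30 h. An SD bar that reaches below 0 only shows a spread larger than the mean.

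Set in the course of regeneration, the step differed between gene groups. Cdc6 averaged 0.271 ± 0.131 CPM in KO livers before surgery (SD, n = 3, as for each mean here). Its mean was 1.17 ± 1.12 CPM in 24 h livers, 27.9 ± 5.08 CPM in 30 h livers, 6.34 ± 4.03 CPM in 40 h livers and 7.60 ± 8.17 CPM in 48 h livers. Pcna, at 23.7 ± 1.62 CPM in 24 h livers, stayed high for longer, with 124 ± 15.7 CPM in 30 h livers, 117 ± 38.6 CPM in 40 h livers and 61.6 ± 20.7 CPM in 48 h livers. Ccnb1 came later than both genes. Its mean was 0.155 ± 0.063 CPM in 24 h livers and 3.95 ± 1.10 CPM in 30 h livers, a small part of the 56.4 ± 24.9 CPM in 40 h livers and the 128 ± 24.7 CPM in 48 h livers. Cdk1 averaged 25.7 ± 5.27 CPM in 30 h livers, 110.4 ± 36.1 CPM in 40 h livers and 149 ± 25.7 CPM in 48 h livers. Ifit1 averaged 7.74 ± 1.38 CPM before surgery and 13.4 ± 1.34 CPM in 24 h livers, and stayed low from 30 h on, with 2.35 ± 0.552 CPM in 30 h livers, 1.98 ± 0.784 CPM in 40 h livers and 2.72 ± 0.758 CPM in 48 h livers. Arntl was low only in the 30 h livers of these 4 times, with 21.8 ± 4.77 CPM in 24 h livers, 2.89 ± 1.02 CPM in 30 h livers, 20.2 ± 8.99 CPM in 40 h livers and 25.1 ± 5.11 CPM in 48 h livers. These means share the libraries of 24 h and 30 h with the comparison above and were not tested further.

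The same step was measured in wild-type livers. In WT, 307 genes were called higher, or 2.18%, and 129 lower, or 0.916%, from 2 libraries at 30 h and 3 at 24 h. The genotypes shared 330 called genes, of 1273 called in KO and 436 called in WT, and all 330 moved in the same direction. For the difference, KO step minus WT step, edgeR called no gene higher (0.0%) and no gene lower (0.0%), and 776 genes had a p under 0.05 before adjustment. DESeq2 called 8 genes, limma on log2(FPKM + 0.1) called 1 and limma on log2(FPKM + 1) called 4. With 2 libraries at WT 30 h, the smaller count of WT calls does not by itself show a smaller WT step.

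**Figure D5:**
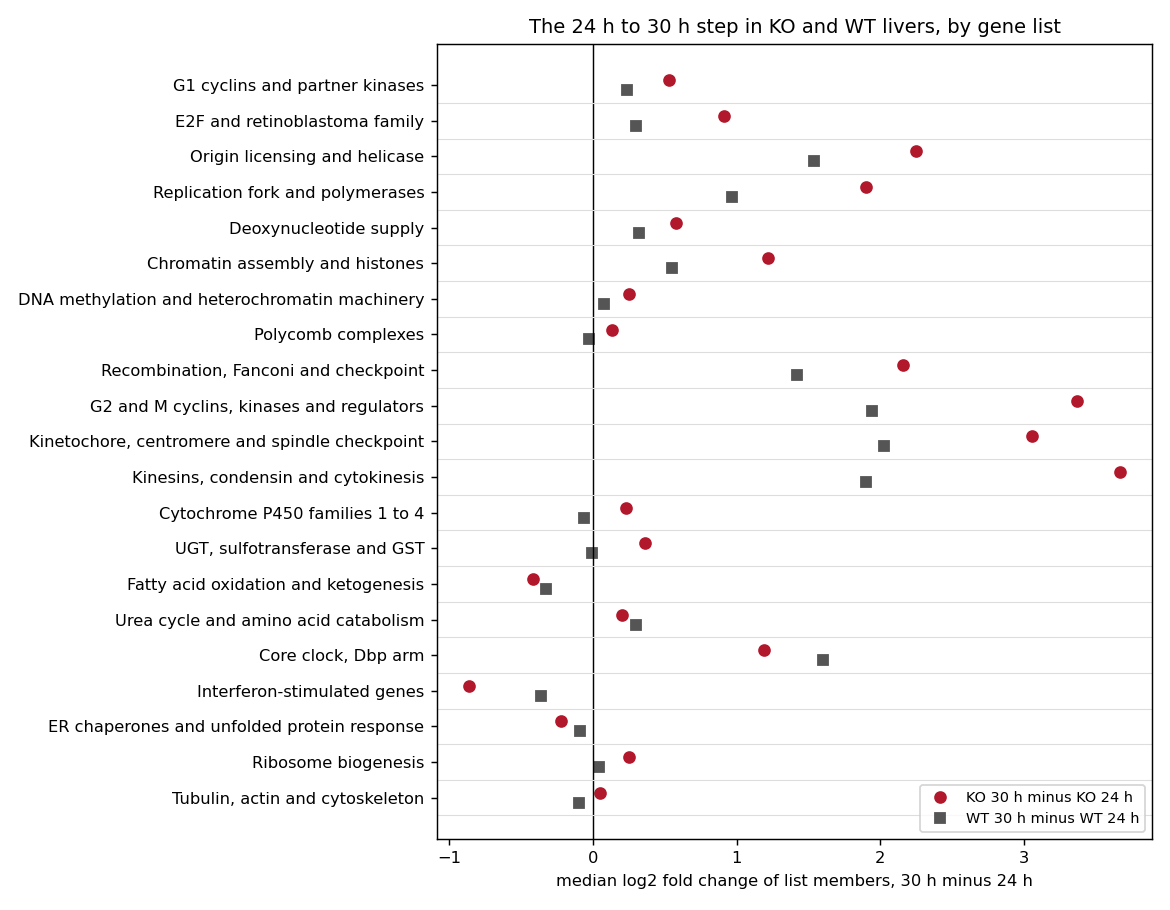
Median log2 fold change, 30 h minus 24 h, of each list's tested members in KO livers (red circles) and in WT livers (grey squares), for lists with at least 5 members called in 1 direction in KO. The KO median is above the WT median for every replication and mitosis list, for example 3.67 against 1.90 for kinesins, condensin and cytokinesis, while for the Dbp arm it is 1.19 against 1.60.

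Of the 11 cycle lists, all but the CDK inhibitors (0.84 in KO, 0.97 in WT) had a higher median log2 fold change in KO than in WT. Over the 285 cycle members the median log2 fold change was 2.2 in KO and 1.31 in WT, and 265 members had the larger fold change in KO. For 92 of the 285, or 32.3%, the difference of the steps had an unadjusted p under 0.05, all with the KO step above the WT step, against 5.51% of all genes tested. After adjustment over all genes none of these passed in edgeR. All members were measured in the same libraries, 2 of them at WT 30 h. They are therefore not independent of each other, and the difference of the shares was not tested. Cdk1 had 20.2, 26.1 and 30.7 CPM at KO 30 h and 1.38, 0.858 and 1.88 CPM at KO 24 h, beside 8.21 and 6.42 CPM at WT 30 h and 2.11, 0.672 and 0.651 CPM at WT 24 h (difference of the steps 1.58 ± 0.68, adjusted p = 0.839). Rrm2 had 22.6 and 14.4 CPM at WT 30 h and 3.66, 3.3 and 2.77 CPM at WT 24 h, and its step differed by 1.82 ± 0.45 (edgeR adjusted p = 0.327). With limma on log2(FPKM + 1) the difference for Rrm2 passed (adjusted p = 0.0456). Its KO 30 h libraries, at 82.1 to 129 CPM, lay above both WT 30 h libraries, as did those of Pcna, at 111 to 141 CPM against 67.7 and 45.9 CPM.

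Dbp and Arntl had fold changes of the same sign in both genotypes. Dbp had 33.5 and 38.7 CPM at WT 30 h and 0.824, 1.4 and 0.651 CPM at WT 24 h, and the difference of its steps, -1.43 ± 1.60, was smaller than its error. Arntl had 1.77 and 1.7 CPM at WT 30 h and 27.4, 25.2 and 23.3 CPM at WT 24 h. For the interferon-stimulated genes the median was -0.86 in KO and -0.36 in WT. Ifit1 had 6.52 and 4 CPM at WT 30 h and 6.65, 6.35 and 11.1 CPM at WT 24 h, and these overlapped. Its difference of steps was -1.88 ± 0.52 with an adjusted p of 0.353, so a difference between the genotypes was not shown.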

How the data were processed

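Poly(A) RNA of mouse liver was sequenced in 45 libraries of 16 groups. Titles gave each library's genotype and time. The gene counts are whole-number counts as the authors deposited them, for 19966 Ensembl IDs, without normalization. The deposited FPKM table of the authors, with 46472 entries, served for alternative fits. FastQC 0.11.5, Trimmomatic, TopHat2 2.1.0, Cufflinks 2.2.1, HTSeq and DESeq2 are named, with build mm10, per the submitters' processing notes. The counting's strand setting is not given in the sources used here, so overlapping and antisense genes cannot be told apart.

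In R 4.3.3, edgeR 4.0.16 (filterByExpr, TMM factors, glmQLFit with robust estimation, glmQLFTest) was fitted with 1 mean per group over all 45 libraries, so that all groups shared the spread (29 residual degrees of freedom). The filter kept 14090 genes, which held at least 99.944% of every library's counts. Levels are TMM-scaled CPM, fold changes are log2 values whose SE is the size of the fold change over the root of F, and a call needs an adjusted p (Benjamini-Hochberg, all genes tested) under 0.05. DESeq2 1.42.0 and limma 3.58.1 on log2(FPKM + 0.1) or log2(FPKM + 1) were alternatives. The fit was tested on simulated data.

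The comparison, the 57 gene lists and the named genes were chosen with earlier results of these data known, so no list is independent evidence. Named genes were a set of 23, the 15 largest called changes in each direction whose libraries did not overlap and whose mean log2 CPM was 1 or more, leaving out predicted genes, and up to 4 called members per list and direction, with list members also named for their own list's count. Promoters come from RefSeq, matched by symbol (10554 of the genes tested), and printed stretches are the 150 bases before the start, trimmed at the annotated gene. Some genes that the rule named are not reported here.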

Additional observations from a re-analysis of the deposited data

Results flagged for a closer look

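The 177 named genes were searched for libraries that lay apart in opposite directions in KO and in WT. This was so for 2 genes, both called in KO livers. Other called genes were not searched. Ugt2b1, a glucuronidation gene, rose by 0.88 ± 0.21 on the log2 scale at KO 30 h relative to KO 24 h and had a WT step of -0.31 ± 0.23. Cd79b, a B cell receptor gene, had a log2 fold change of -2.16 ± 0.51 in KO, at 0.141 to 0.353 CPM at KO 30 h and 0.631 to 1.88 CPM at KO 24 h, and a WT step of 0.99 ± 0.67. The difference of the steps did not pass for either gene after adjustment over all genes (edgeR adjusted p = 0.327 for both). Ugt2b1 lost its call without KO 30 h replicate 3 (adjusted p = 0.052) and Cd79b without KO 24 h replicate 3 (adjusted p = 0.0849).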

How the results depend on the processing

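Of 2991 values of named genes under the alternatives, 2677 kept direction and side of the threshold, 312 kept direction only, 2 passed the threshold newly and 0 changed sign. Of 171 named genes called, 102 stayed called under every alternative run. The count of genes higher at KO 30 h stayed within 1.5 times its value under each of them. The count lower was 223, 244 and 212 under limma on log2(FPKM + 0.1), on log2(FPKM + 1) and on log2(FPKM + 0.1) with at least 1 FPKM in 3 libraries, against 389, and 144 to 384 without 1 library. Leaving out 1 library, the WT counts were 168 to 275 higher and 19 to 108 lower. The WT genes lower were 230 with DESeq2 and 82, 82 and 78 in the same limma fits. The difference of the steps gave 8 genes with DESeq2, 1 and 4 with limma on log2(FPKM + 0.1) and log2(FPKM + 1), and 0 to 1 without 1 library. The 8 were Mgp, Mfap4 and Myh11, genes of vessel wall and matrix, with Cenpw, Prc1, Stmn1, Eri1 and Mthfd2. Limma called Ska1 on log2(FPKM + 0.1), and Cenpi, Pbk, Pclaf and Rrm2 on log2(FPKM + 1). Cenpw, Prc1, Ska1, Cenpi and Rrm2 are members of the cycle lists. In every gene named here the KO step was above the WT step. Deviations from the group means of same-numbered KO libraries correlated at 0.0417, 0.0119 and -0.0743, and those of unlike numbers at -0.0868 to 0.0576. These values showed no pairing by number, and with 3 libraries per group they cannot exclude it. With the replicate block the KO counts were 640 higher and 339 lower, the WT counts 108 and 59, and P450 calls 4.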
